A study of Mus musculus with 16 samples.

Results

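Expression of 10 genes that specify, maintain and fuse muscle cells was followed in quadriceps muscle of mice without Nampt in skeletal muscle (KO) and of wild-type mice (WT). They were taken by name from the 45706 genes of the deposited count table: the 4 myogenic regulatory factors Myod1, Myog, Myf5 and Myf6, the satellite cell factor Pax7, the fusion protein myomaker (listed as Tmem8c), the MEF2 factors Mef2a, Mef2c and Mef2d, and Runx1. The 16 libraries of polyadenylated RNA came from 8 KO and 8 WT samples. Nampt encodes the enzyme that limits the salvage of nicotinamide to NAD. The labels give the knockout as skeletal-muscle-specific and name neither the promoter that drives the deletion nor the age, sex or litter of the mice. Whether satellite cells carry the deletion is therefore not given in the sources used here. Separate samples of each genotype are listed without the number of animals, and the p-values therefore rest on the spread among these samples, which may be technical.

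Satellite cells are the resident stem cells of muscle and lie quiescent beside the fibre, marked by Pax7. Activated cells express Myf5 and Myod1, then Myog as they stop dividing and differentiate. They fuse with each other or with a fibre through myomaker. The myogenic regulatory factors are basic helix-loop-helix proteins that bind the E-box together with E proteins, and the MEF2 factors bind an AT-rich element and work with them on shared targets. In adult fibres Myf6 and the MEF2 factors stay expressed, whereas Myog and Runx1 are known to be induced when a fibre loses its nerve.

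Upstream sequence was found in RefSeq (GRCm38.p6) for 7 of the 10 genes, and none was found for Myod1, Myf6 and Tmem8c. In the 250 bases before the start, capitals mark each E-box (CANNTG), each MEF2 core (a 10-base AT-rich pattern) and each RUNX core (TGTGGT), searched on both strands. The Myog window holds an E-box pair and a MEF2 core, and the most upstream Mef2c window holds the same kinds. The Myf5 window holds neither but has a RUNX core. These 3 windows are shown for these motifs. They lie at chr1:134289754-134290003 on the plus strand (Myog), chr13:83503784-83504033 on the plus strand (the most upstream of 3 Mef2c starts) and chr10:107486135-107486384 on the minus strand (Myf5).
Myog: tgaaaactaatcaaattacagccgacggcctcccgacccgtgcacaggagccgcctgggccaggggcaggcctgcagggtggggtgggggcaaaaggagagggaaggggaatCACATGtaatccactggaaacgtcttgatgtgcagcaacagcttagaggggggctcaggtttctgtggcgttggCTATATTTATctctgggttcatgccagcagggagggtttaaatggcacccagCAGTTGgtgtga
Mef2c: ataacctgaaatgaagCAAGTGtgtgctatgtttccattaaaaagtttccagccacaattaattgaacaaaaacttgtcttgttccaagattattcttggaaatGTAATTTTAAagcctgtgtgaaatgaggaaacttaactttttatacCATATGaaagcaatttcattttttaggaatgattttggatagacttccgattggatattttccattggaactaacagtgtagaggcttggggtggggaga
Myf5: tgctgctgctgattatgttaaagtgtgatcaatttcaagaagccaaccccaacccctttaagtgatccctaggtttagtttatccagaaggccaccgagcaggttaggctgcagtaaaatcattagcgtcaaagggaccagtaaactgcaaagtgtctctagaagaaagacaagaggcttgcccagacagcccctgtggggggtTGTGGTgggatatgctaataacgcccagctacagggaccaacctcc

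In the Myog window the E-boxes CACATG and CAGTTG began at positions -138 and -12 and the MEF2 core ran from -64 to -55, counted back from the RefSeq start. The Mef2c window shown held E-boxes at -234 and -100 and a MEF2 core from -146 to -137. The window of the middle Mef2c start held none of the 3 motifs. That of the most downstream Mef2c start held 1 E-box and no MEF2 core. Of 32817 promoter windows of this length, 66.2% held an E-box, 7.04% a MEF2 core and 14.0% a RUNX core, so an E-box match by itself is common. A match describes letters and shows no binding. The windows of Pax7, Mef2a and Mef2d held none of these 3 motifs, nor did that of the downstream Runx1 start, while that of the upstream Runx1 start held 3 E-boxes. Windows were placed by RefSeq starts, which can differ from those of the GENCODE annotation. The Pax7 window, at 139832969 to 139833218, lay wholly inside the GENCODE span of Pax7, as windows of downstream starts do. Those of Myog and the upstream Runx1 start ran partly into theirs.

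Each library held between 16065394 and 51881258 estimated counts, and 1 CPM (a count scaled to library size, after TMM normalisation) stood for between 16.4 and 55.25 counts. Nampt was lower in every KO library, at 73.4 ± 9.30 CPM against 141.4 ± 12.0 CPM in WT (SD, n = 8 each; edgeR quasi-likelihood, adjusted p = 9.68e-07). Genes that define muscle fibres (Acta1, Ckm, Myh4, Myh1, Ttn and Tnnt3) summed to 132016 to 159147 CPM in KO libraries, and 133765 to 167235 CPM in WT libraries, which matches the labelled tissue. RNAs without a poly(A) tail summed to 268.4 to 758.7 CPM in KO libraries, and 242.2 to 476.4 CPM in WT libraries; with their level as a covariate, 0 of the 10 genes were called. Library WT 4, and less so KO 4, stood apart in several of the genes described here, so those results are also given without them.

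Per length of exon, the most abundant of the 10 genes were Myf6, Mef2d and Mef2c. Myf6, the factor of mature fibres also called MRF4, had 42.2 CPM per kb (range 30.8 to 49.7 over 16 libraries). Mef2d and Mef2c followed with 38.9 (35.7 to 45.2) and 36.4 (31.1 to 40.1) CPM per kb. The order among these 3 was not fixed, since Myf6 exceeded Mef2d in 10 of 16 libraries and Mef2d exceeded Mef2c in 12 of 16. Myod1 (11.9 CPM per kb) lay below Mef2c in 16 of 16 libraries without overlap, and above Mef2a (9.04 CPM per kb) in 13 of 16 with overlapping ranges. Myog, at 2.48 CPM per kb, was below Mef2a in 16 of 16 without overlap. Tmem8c, Pax7, Myf5 and Runx1 were the lowest, with means of 0.936, 0.531, 0.444 and 0.372 CPM per kb. Myog exceeded Tmem8c in 16 of 16 libraries although their ranges overlapped, and the last 4 did not separate from their neighbours beyond their spread. Exon lengths are the union of all annotated exons, so levels of genes with many alternative exons are low estimates.

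**Figure D1:**
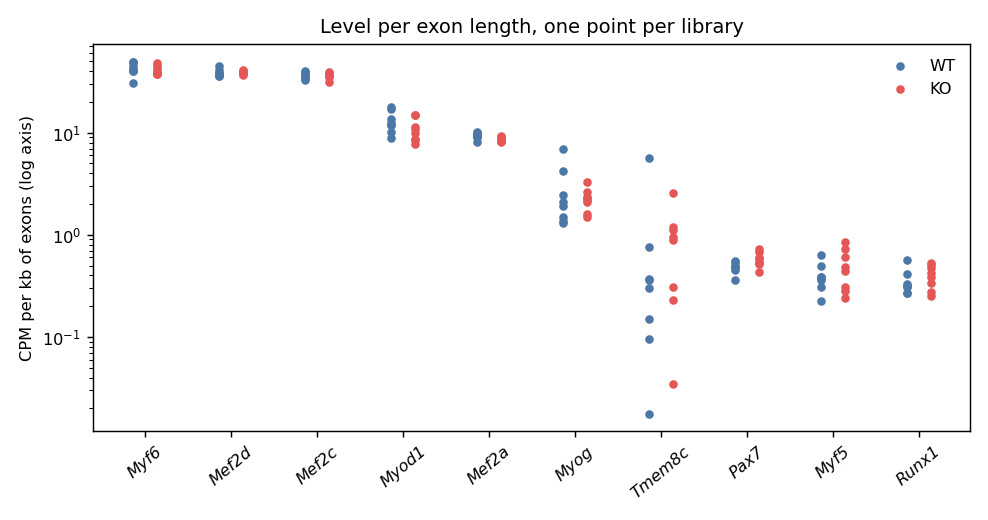
CPM per kb of exons on a log axis for the 10 genes, in order of their mean, with 1 point per library (8 WT in blue, 8 KO in red). Myf6 (30.8 to 49.7 CPM per kb), Mef2d (35.7 to 45.2) and Mef2c (31.1 to 40.1) overlap, and Tmem8c spreads the most, from 0.0177 to 5.62 CPM per kb.

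None of the 10 genes changed between KO and WT at an adjusted p under 0.05. All 10 passed the low-count filter, 0 of 10 were called by edgeR's quasi-likelihood test or limma-voom, DESeq2 called 0 of the 5 for which it gave an adjusted p, and edgeR called 6 of the 13792 tested genes (0.0435%). Pax7 and Mef2a, 2 of 10, had an unadjusted p under 0.05 with each of the 3 tools, against 9.57% of all tested genes. KO and WT libraries overlapped in each of the 10, and 0.123% of all tested genes had groups that did not overlap. The 95% interval lay inside a 1.5-fold change either way for 6 of the 10 genes (Myf6, Pax7, Runx1 and the 3 MEF2 genes), against 86.2% of all tested genes. Independent filtering in DESeq2 left the adjusted p empty for 5 genes, Myog, Myf5, Pax7, Tmem8c and Runx1.

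**Figure D2:**
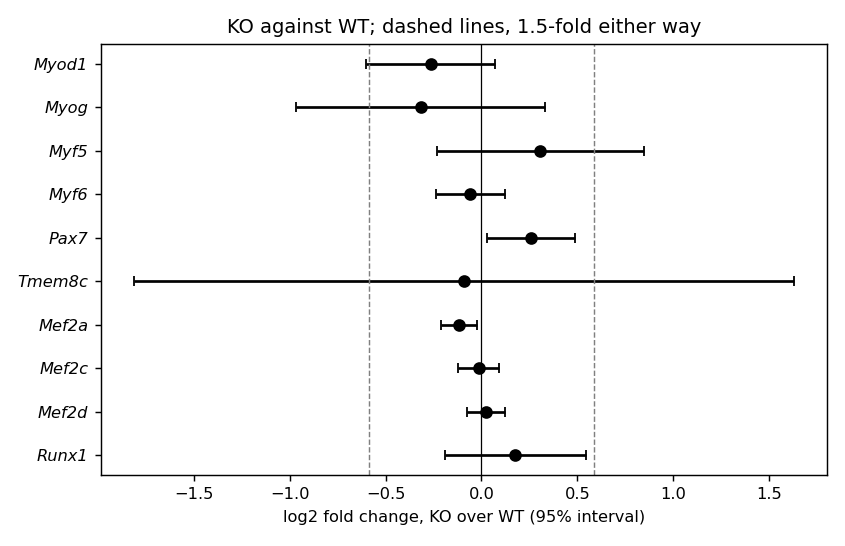
The log2 fold change of KO over WT from the edgeR fit with its 95% interval for each of the 10 genes, with dashed lines at a 1.5-fold change either way. The intervals of the MEF2 genes and Myf6 lie inside the dashed lines, and Tmem8c has the widest, from -1.81 to 1.63.

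Pax7, the paired-box factor that marks satellite cells and keeps them from differentiating, had slightly higher levels in KO that did not pass over all genes. Its gene (ENSMUSG00000028736) spans 139737062 to 139833528 on chromosome 4 (minus strand, GRCm38). Its lowest, median and highest levels were 2.52, 3.31 and 4.23 CPM in KO and 2.10, 2.86 and 3.24 CPM in WT. The groups overlapped, with 7 of 8 KO libraries above the WT mean, KO 5 and KO 4 the highest and WT 3 the lowest. KO over WT for Pax7 came to 0.26 on the log2 scale (SE 0.11, edgeR adjusted p = 0.453, and 0.291 to 0.745 over the alternatives), a 1.20-fold difference (95% interval 1.02 to 1.40). A two-sided exact permutation test over the 12870 assignments of libraries gave an unadjusted p = 0.0348 for Pax7 (n = 8 each), where the smallest possible is 0.000155. In bulk tissue, more Pax7-expressing cells and more Pax7 RNA per cell cannot be told apart. Counts of Pax7 ran from 52 to 119 per library.

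Of 16 other satellite cell markers 15 were tested and 0 were called, with 10 above 0 and a median log2 fold change of 0.15, beside a median of 0.00 over all tested genes. Endothelial markers lay the same way, with 8 of 10 above 0 and a median of 0.11. So did macrophage and blood cell markers, with 11 of 12 tested above 0 and a median of 0.06. All lists of cell type markers together, fibre markers included, had 34 of 48 tested genes above 0 and 14 below, beside 7146 of all 13792 tested genes above 0. The part of these cell types in the satellite marker values was not tested. The satellite list holds genes that other cells of muscle also express. An unadjusted p under 0.05 was reached by 2 of 15, both with higher means in KO, beside 9.57% of all tested genes. The 2 were Sdc3 and Fgfr4, a surface proteoglycan and a fibroblast growth factor receptor of satellite cells. Sdc3 averaged 25.2 ± 3.09 CPM in KO against 22.3 ± 2.17 CPM in WT (SD, n = 8 each; log2 fold change 0.18). Fgfr4 averaged 2.38 ± 0.212 CPM in KO against 2.07 ± 0.252 CPM in WT (log2 fold change 0.21), with an edgeR adjusted p of 0.477, against 0.468 for Sdc3. The most abundant markers, Itga7 and Sdc4, had log2 fold changes of -0.03 and -0.11. Among 9 proliferation genes, 5 were tested and 0 called. Mki67, the marker of dividing cells, averaged 1.34 ± 0.529 CPM in KO against 1.24 ± 0.729 CPM in WT. Mcm2, of the replication helicase, was the 1 proliferation gene with an unadjusted p under 0.05, at a log2 fold change of -0.24 (adjusted p = 0.247), and Pcna, the replication clamp, had -0.05.

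Myf5, a factor of myoblasts, was near the lower limit of detection with between 11 and 49 counts per library. Its lowest, median and highest levels were 0.504, 0.957 and 1.76 CPM in KO and 0.472, 0.793 and 1.31 CPM in WT. KO 4 and KO 6 were the highest and WT 2 and KO 1 the lowest, so the groups overlapped over most of their range. Myf5 differed by 0.31 on the log2 scale, KO over WT (SE 0.26, edgeR adjusted p = 0.761). It differed by 0.16 without KO 4, 0.45 without WT 7 and 0.64 without KO 1, KO 3, KO 5 and KO 8 (adjusted p between 0.337 and 0.950 over the alternatives). Myf5 (ENSMUSG00000000435) spans 107482908 to 107486134 on the minus strand of chromosome 10 in GRCm38 and is the neighbour of Myf6, with 6718 bases between them.

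Myod1, the factor that commits cells to the myogenic fate and is also present in adult fast fibres, had lower means in KO that did not pass. Its gene (ENSMUSG00000009471) spans 46376474 to 46379099 on chromosome 7 (plus strand, GRCm38). Levels of Myod1 ran from 14.3 CPM through a median of 19.4 to 28.0 CPM in KO and from 16.5 through 22.8 to 33.0 CPM in WT. WT 3 and WT 5 were the highest and KO 6 the lowest, yet KO 1 and KO 2 lay above the WT mean. KO over WT came to -0.26 on the log2 scale (SE 0.16, edgeR adjusted p = 0.637), with a 95% interval from 0.66 to 1.05 as a fold. Leaving out 1 library moved it between -0.35 (without KO 1) and -0.18 (without WT 3), with the sign kept in all 29 alternative fits.

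Myog, or myogenin, the factor that starts terminal differentiation, did not pass, and its highest levels came from WT 4 and WT 3. Its gene (ENSMUSG00000026459) spans 134289989 to 134292548 on chromosome 1 (plus strand, GRCm38). Its lowest, median and highest levels were 2.23, 3.34 and 4.96 CPM in KO and 1.95, 3.02 and 10.2 CPM in WT. WT 4 and WT 3 (6.30 CPM) were the highest of all 16, KO 4 was the highest of KO, and WT 5 was the lowest. KO over WT for Myog came to -0.32 on the log2 scale (SE 0.31, edgeR adjusted p = 0.797). Without WT 4 it was 0.03, and without WT 3 and WT 4 it was 0.32, with adjusted p between 0.606 and 0.986 over the alternatives. The mean of log2 values differed by -0.08, less than the spread within groups of 0.57 (SD, log2 scale), and the group medians were ordered the other way from the means.

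Myf6 was nearly the same in both groups. Its gene (ENSMUSG00000035923) spans 107492853 to 107494737 on chromosome 10 (minus strand, GRCm38). Libraries lay between 47.1 and 60.2 CPM in KO (median 51.1) and between 38.9 and 62.8 CPM in WT (median 53.7), with WT 7 the lowest of all. KO over WT for Myf6 came to -0.06 on the log2 scale (SE 0.09, edgeR adjusted p = 0.883), and its 95% interval ran from 0.85 to 1.09 as a fold.

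**Figure D3:**
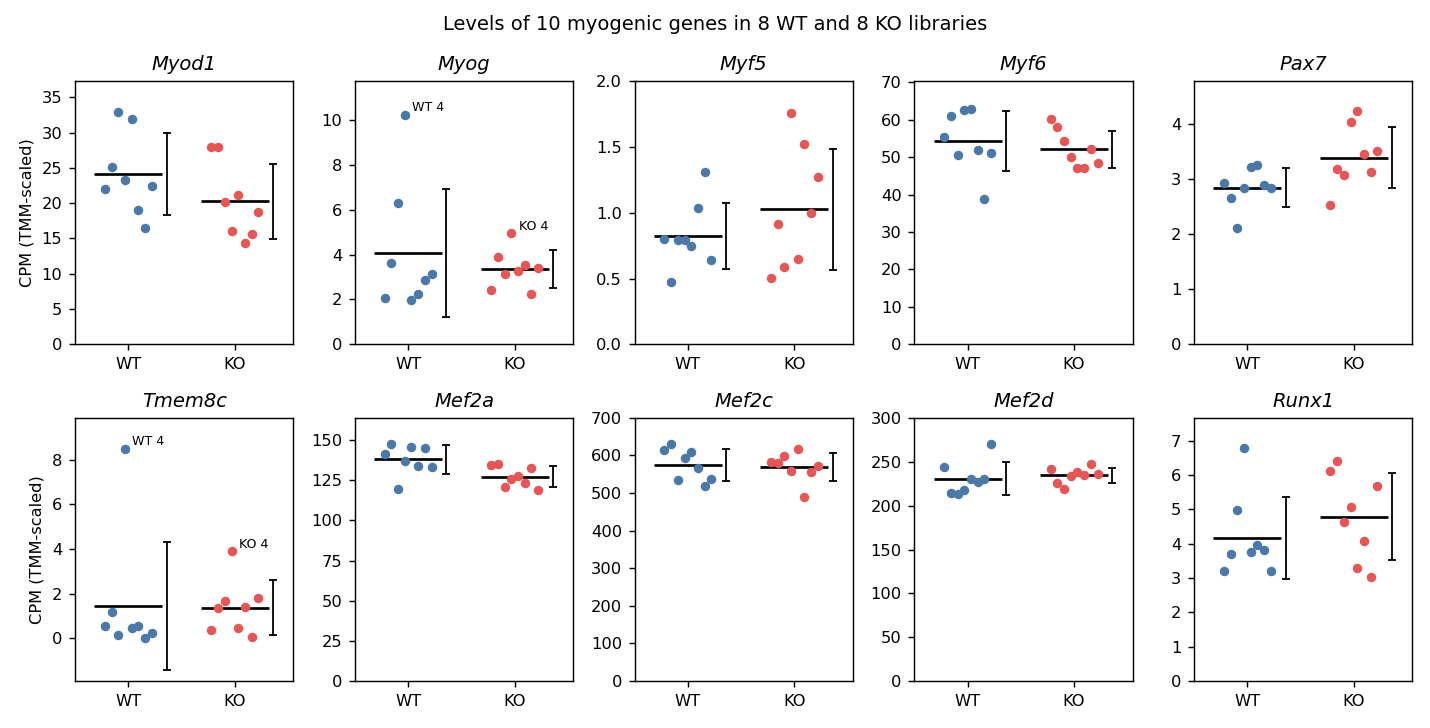
CPM of each gene in 8 WT (blue) and 8 KO (red) libraries, with the mean as a line and the SD as the bar beside it; the axes start at 0, except for Tmem8c, where the SD bar of WT runs below 0. WT 4 and KO 4 are the highest points of their groups for Tmem8c and Myog, and all groups overlap.

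Tmem8c, the membrane protein myomaker that is needed for myoblasts to fuse, varied more between libraries than any other of the 10. Its gene (ENSMUSG00000009214) spans 27061636 to 27072179 on chromosome 2 (minus strand, GRCm38). Its lowest, median and highest levels were 0.0526, 1.38 and 3.90 CPM in KO and 0.0268, 0.495 and 8.49 CPM in WT. WT 4 and KO 4 were the highest, and WT 7 and KO 7 the lowest with 1 and 2 counts. The ratio of WT 4 (258 counts) to WT 7 (1 count) was 317.4, with an exact 95% interval from 56.5 to 12600 for counting error only. The within-group SD of Tmem8c on the log2 scale was 1.13, at the 99.8 percentile of the tested genes. KO over WT came to -0.09 on the log2 scale (SE 0.82, edgeR adjusted p = 0.988), and the 95% interval from -1.81 to 1.63 leaves its difference undetermined at this spread. The mean of log2 values differed by 0.40, KO over WT, less than the within-group SD, and the KO median lay above the WT median. Without WT 4 the log2 fold change was 1.75, without KO 4 it was -0.53 and without both it was 1.30. Adjusted p lay between 0.454 and 0.998 over the alternatives of this log2 fold change. Its sign turned in 10 of 28 alternative fits.

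The partner of myomaker, myomixer (listed as Gm7325), was too low to be tested, with levels from 0 to 0.724 CPM and its highest value in WT 4. Of 20 fusion genes other than Tmem8c, myomixer included, 16 were tested, 0 were called, and the median log2 fold change was 0.04. An unadjusted p under 0.05 was reached by 4 of 16, with 2 in each direction, beside 9.57% of all tested genes. Dock1, an activator of the small GTPase Rac1, averaged 11.4 ± 1.31 CPM in KO against 9.72 ± 0.994 CPM in WT (log2 fold change 0.22; edgeR, adjusted p = 0.318). Jam2, an adhesion molecule, stood at 0.12 on the log2 scale (adjusted p = 0.471). The most abundant, Itgb1 and Rac1, had log2 fold changes of -0.11 and -0.08 (adjusted p = 0.472 and 0.481).

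The MEF2 genes were the steadiest of the 10. Mef2a (ENSMUSG00000030557) lies on the minus strand of chromosome 7, 67231163 to 67372858 in GRCm38. Mef2a had 118.8, 126.9 and 135.4 CPM as the lowest, median and highest levels in KO, and 119.7, 139.4 and 147.6 CPM in WT. All 8 KO libraries of Mef2a lay below the WT mean, and WT 3 alone among WT lay as low as the lower KO libraries. KO over WT for Mef2a came to -0.12 on the log2 scale (SE 0.04, edgeR adjusted p = 0.397), a level of 0.92 of WT with a 95% interval from 0.86 to 0.98. The exact two-sided permutation test gave an unadjusted p = 0.0214 for Mef2a (n = 8 each). Its adjusted p ran from 0.178, with DESeq2, to 0.657 over the alternatives. Mef2a overlaps the gene Lysmd4 on the other strand, which had a log2 fold change of -0.07 with mean levels of 8.81 (KO) and 9.28 CPM (WT), and without a stated strand setting reads of shared bases cannot be told apart.

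Mef2c, the MEF2 gene with the highest count and also a gene of endothelial and blood cells, had 489.3, 575.4 and 616.6 CPM as the lowest, median and highest levels in KO and 518.3, 579.4 and 629.7 CPM in WT. Mef2c (ENSMUSG00000005583) lies on the plus strand of chromosome 13, 83504034 to 83667080 in GRCm38. KO 6 was the lowest and WT 2 the highest, and the other libraries mixed. KO over WT came to -0.02 on the log2 scale (SE 0.05, edgeR adjusted p = 0.957). Endothelial markers summed to 335.2 to 395.5 CPM in KO libraries, and 312.4 to 355.5 CPM in WT libraries, with 8 of 10 above 0 and 0 called; their part in the level of Mef2c was not tested. An unadjusted p under 0.05 was reached by 3 of 10 (Cdh5, Emcn and Tie1), all with higher means in KO, beside 9.57% of all tested genes. Cdh5, the endothelial cadherin, averaged 89.5 ± 3.91 CPM in KO against 79.0 ± 7.02 CPM in WT (edgeR, adjusted p = 0.235). Mef2d, which is widely expressed and enriched in muscle, had 219.3, 235.6 and 247.4 CPM as the lowest, median and highest levels in KO and 213.9, 228.5 and 270.4 CPM in WT. Mef2d (ENSMUSG00000001419) lies on the plus strand of chromosome 3, 88142372 to 88172086 in GRCm38. WT 8 was the highest and WT 3 the lowest, so the KO libraries lay within the WT range. KO over WT for Mef2d came to 0.02 on the log2 scale (SE 0.05, edgeR adjusted p = 0.921).

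Of 13 known MEF2 target genes all 13 were tested and 0 were called. Of these, 10 had a log2 fold change below 0, beside 6646 of all 13792 tested genes, and the median of the targets was -0.07. Smyd1, a muscle methyltransferase needed for sarcomere assembly, had the smallest p, with 461.9 ± 21.6 CPM in KO and 525.1 ± 32.4 CPM in WT (SD, n = 8 each; KO over WT -0.19 on the log2 scale, SE 0.04, edgeR adjusted p = 0.148). The KO and WT libraries of Smyd1 did not overlap, with at most 481.0 CPM in KO and at least 486.4 CPM in WT. Of all tested genes 0.123% had groups that did not overlap. Srpk3, a muscle splicing kinase, stood at -0.14 on the log2 scale (adjusted p = 0.561). The most abundant targets, Ckm (muscle creatine kinase) and Xirp2, had log2 fold changes of -0.07 and -0.06. Of the repressors, kinases and partners of MEF2, 14 of 16 were tested and 0 called, with a median of -0.04. In that list Vgll4 stood at 0.42 on the log2 scale (adjusted p = 0.473), with 18.4 ± 6.81 CPM in KO and 13.9 ± 2.33 CPM in WT. Camk2a and Camk2b, calcium-dependent kinases that relieve repression of MEF2, had log2 fold changes of -0.11 and -0.12 (adjusted p = 0.561 and 0.605), and Camk2d had -0.12 (adjusted p = 0.558).

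Runx1, a runt-domain factor of blood stem cells that denervated fibres also express, was low in both groups. Its gene (ENSMUSG00000022952) spans 92601466 to 92826149 on chromosome 16 (minus strand, GRCm38). Libraries had 3.02 to 6.40 CPM in KO (median 4.85) and 3.20 to 6.78 CPM in WT (median 3.78). WT 4 was the highest and KO 7 the lowest, and KO 2, KO 1 and KO 8 came next after WT 4. KO over WT for Runx1 came to 0.18 on the log2 scale (SE 0.18, edgeR adjusted p = 0.804), and 0.31 without WT 4, with adjusted p between 0.455 and 0.920 over the alternatives. Markers of macrophages and other blood cells, which also express Runx1, summed to 138.9 to 323.0 CPM in KO libraries, and 135.2 to 347.8 CPM in WT libraries. They were highest in WT 4 and KO 4 and lowest in WT 8 and KO 7. The lymphocyte markers Cd3e and Cd79a in that list were too low to be tested. Of the 12 tested, 11 had a log2 fold change above 0, with a median of 0.06 and 0 called. The part of these markers in the level of Runx1 was not tested. Of 8 RUNX partners and relatives 7 were tested and 0 called or under an unadjusted p of 0.05, with edgeR. Cbfb, the shared partner subunit, averaged 76.7 ± 11.1 CPM in KO against 81.3 ± 7.43 CPM in WT (log2 fold change -0.08, adjusted p = 0.793), and Tle3, a corepressor, had 0.06.

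Regulators that act above or beside these factors were described by 2 further lists. Of 15 partners and inhibitors of the myogenic factors, all 15 were tested, 0 were called and 10 lay above 0, with a median log2 fold change of 0.08. Those with the smallest p were the E proteins Tcf4 and Tcf12, with which the myogenic factors pair. Tcf4 averaged 52.8 ± 7.57 CPM in KO against 45.7 ± 4.08 CPM in WT (log2 fold change 0.21, edgeR adjusted p = 0.392). Tcf12 stood at 0.10 on the log2 scale (adjusted p = 0.461), with 8 of 8 KO libraries above the WT mean. Zeb1, a repressor that binds E-boxes and the most abundant of this list, had 0.02.

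Of 21 upstream regulators all 21 were tested, 0 were called, and all 21 intervals lay inside a 1.5-fold change. An unadjusted p under 0.05 was reached by 5 of 21, with lower means in KO for all 5. Smarcd3, the subunit that brings the SWI/SNF remodelling complex to MyoD, averaged 102.9 ± 12.2 CPM in KO against 126.9 ± 13.5 CPM in WT (log2 fold change -0.30, SE 0.08, edgeR adjusted p = 0.199), with 0 of 8 KO libraries exceeding the WT mean. Sox6, a repressor of slow fibre genes in fast fibres, stood at -0.13 on the log2 scale (adjusted p = 0.337), also with 0 of 8 above the WT mean. Nfix and Tead1, the most abundant, had 0.00 and 0.09. Over all 9 pathway lists, counting shared genes once, 123 of 135 listed genes were tested and 0 called. Of these, 19 of 123 had an unadjusted p under 0.05, 8 higher and 11 lower in KO, beside 9.57% of all tested genes (555 higher and 765 lower).

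**Figure D4:**
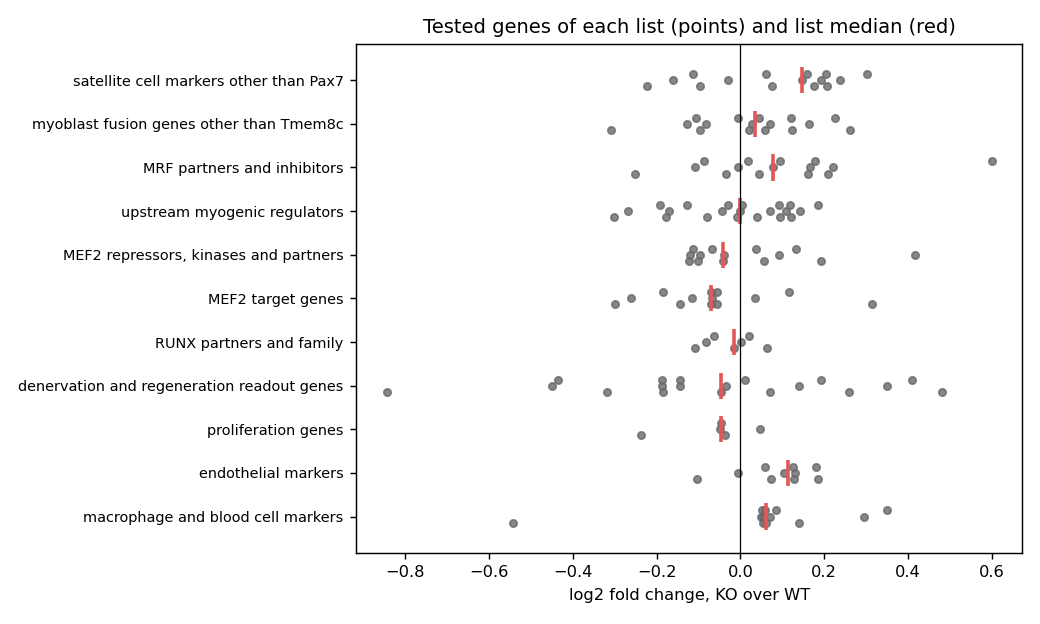
The log2 fold change of KO over WT (x axis) for each tested gene of 11 lists (points), with the list median as a red bar. Medians lie between -0.07 (MEF2 target genes) and 0.15 (satellite cell markers), and the denervation and regeneration genes spread the widest.

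Genes that report denervation or regeneration were often highest in WT 4, as Tmem8c and Myog were. Of 19 such genes all 19 were tested and 0 were called, with a median log2 fold change of -0.05, and 10 of the 19 had their highest level in WT 4. Over all tested genes 8.11% were highest in WT 4. Myh3, the embryonic myosin heavy chain, had 100.1 CPM in WT 4 and 28.9 CPM in KO 4, the next highest, against a median of 9.57 CPM over the 16 libraries. Chrng, the fetal subunit of the acetylcholine receptor, had 4.87 CPM in WT 4 and 0.875 CPM in the next highest library, KO 8. Chrna1, its alpha subunit, had 24.0 CPM in WT 4 and 13.7 CPM in KO 4. Ncam1, an adhesion molecule of satellite cells and denervated fibres, had 17.5 CPM in WT 4 and 13.4 CPM in KO 4, against a median of 7.39 CPM. Myh8, the perinatal myosin, was nearly as high in KO 4 (89.1 CPM) as in WT 4 (94.8 CPM). WT 4 thus held the highest level of 3 of the 10 myogenic genes (Myog, Tmem8c and Runx1) and of these 5 readout genes. Actc1, the cardiac actin of developing muscle, was highest in KO 4 at 530.9 CPM, followed by WT 4 at 295.4 CPM. Chrne, the adult receptor subunit, had the smallest p of the list, at a log2 fold change of 0.26 (edgeR, adjusted p = 0.455), and Dach2, a repressor of Myog, had -0.45 (adjusted p = 0.496). The ubiquitin ligase genes Fbxo32 and Trim63 were not highest in WT 4 or KO 4 and had log2 fold changes of -0.04 and -0.19.

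**Figure D5:**
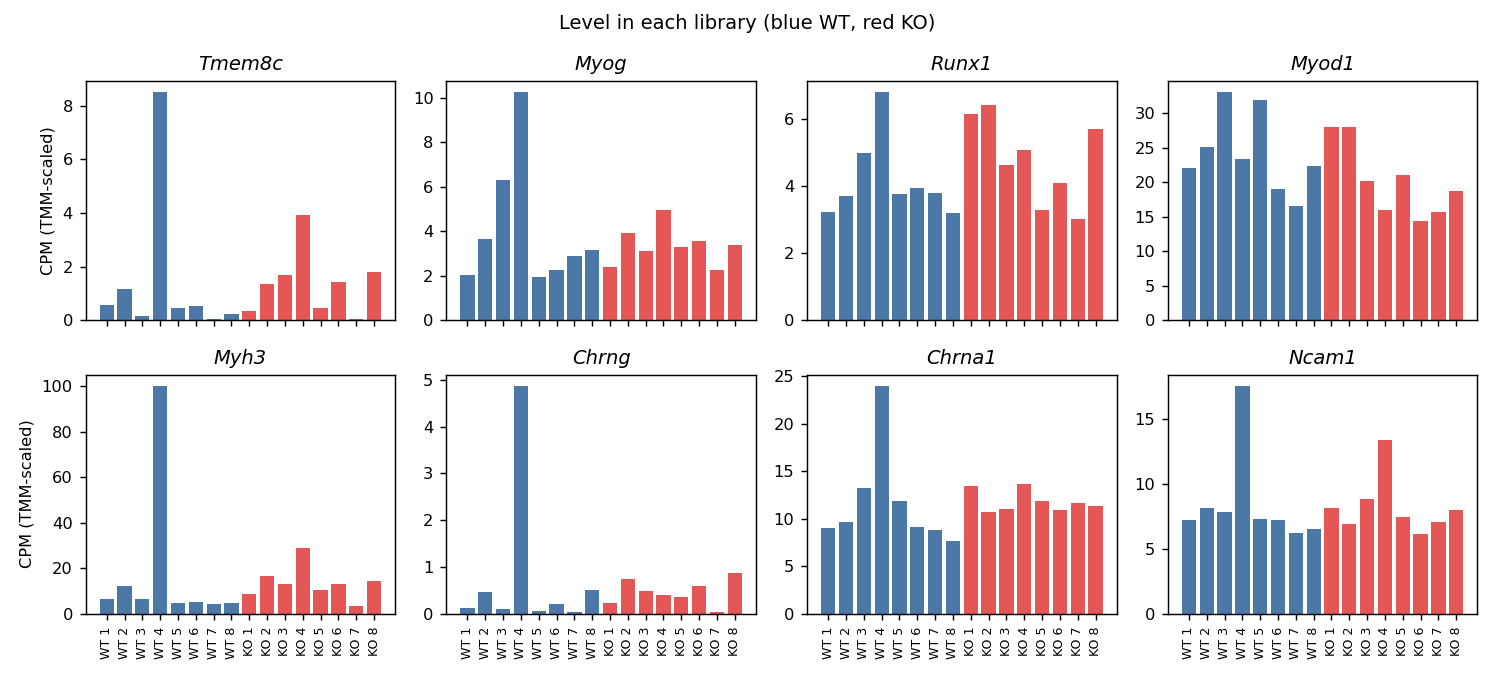
CPM in each of the 8 WT (blue) and 8 KO (red) libraries for 4 myogenic genes (top) and 4 denervation or regeneration genes (bottom), on axes from 0. WT 4 is the highest in each panel except Myod1, where WT 3 is the highest with 33.0 CPM.

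The 10 genes were also compared with each other across libraries, after the mean of each genotype was subtracted from the log2 values. Of the 45 pairs 0 passed a Benjamini-Hochberg adjustment, by Pearson's r or by Spearman's rho. The 7 pairs that shared the smallest adjusted p of r, 0.072, are given here. Tmem8c and Myog had the largest r, 0.682 (permutation p = 0.0112, adjusted p = 0.072) with a rho of 0.521 (permutation p = 0.0353, adjusted p = 0.198). Without the libraries farthest from the median of Myog, WT 4 and WT 3, the r of this pair was 0.646. Myog and Runx1 had an r of 0.638 (permutation p = 0.00648, adjusted p = 0.072) and a rho of 0.494 (permutation p = 0.0422, adjusted p = 0.198). That r dropped to 0.340 without WT 4 and WT 3, so the relation of Myog and Runx1 rests on those libraries. Myod1 and Myf5, which overlap in early myoblasts, ran in opposite directions, with an r of -0.650 (permutation p = 0.0102, adjusted p = 0.072) and a rho of -0.774 (permutation p = 0.00163, adjusted p = 0.0734). The r of this pair was -0.616 without KO 1 and KO 2. Myf6 and Mef2c, both of mature fibres, had an r of 0.648 (permutation p = 0.00659, adjusted p = 0.072), a rho of 0.612 (permutation p = 0.018, adjusted p = 0.198), and an r of 0.534 without WT 7 and WT 5. Myod1 and Myf6 had an r of 0.630 (permutation p = 0.00937, adjusted p = 0.072), a rho of 0.544 (permutation p = 0.033, adjusted p = 0.198), and an r of 0.535 without KO 1 and KO 2. Myf5 ran opposite to both genes of the Myf6 and Mef2c pair. With Mef2c it had the smallest permutation p of r among the 45 pairs, at an r of -0.632 (permutation p = 0.00632, adjusted p = 0.072) and a rho of -0.632 (permutation p = 0.00848, adjusted p = 0.191). With Myf6 it had an r of -0.576 (permutation p = 0.0105, adjusted p = 0.072) and a rho of -0.565 (permutation p = 0.0234, adjusted p = 0.198). Without KO 4 and KO 1 these r were -0.725 and -0.561.

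The genes whose pattern was most like that of 5 members were found among 11404 other genes with a mean of at least 1 CPM, by Pearson's r over the 16 libraries after the genotype mean was subtracted. These are the highest of many values and carry no test. For Tmem8c they were Myh3 (r = 0.951, and 0.856 without WT 4 and KO 4), Pnmal2 (0.937 and 0.824) and Tmsb10 (0.915 and 0.793). For Myog they were Lgals3 (r = 0.891, and 0.753 without WT 4 and WT 3), Sirpa (0.870 and 0.771) and Tubb6 (0.842 and 0.582). For Runx1 they were Gusb (r = 0.907, and 0.828 without WT 4 and KO 7), Syt12 (0.890 and 0.921) and Tlr5 (0.883 and 0.800). For Myod1 they were Pdgfb (r = 0.839), Airn (0.835) and Klf7 (0.811), each at 0.830 or above without KO 1 and KO 2. For Pax7 they were Btbd3 (r = 0.799), Acta1 (0.798) and Ogt (0.775), and these dropped to between 0.532 and 0.586 without WT 3 and KO 1. Lgals3 encodes galectin-3, abundant in macrophages, and Acta1 the skeletal muscle actin of fibres. Airn is antisense to Igf2r, and without a stated strand setting their reads cannot be told apart. None of these 15 genes was called between KO and WT.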

How the data were processed

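Polyadenylated RNA of quadriceps was sequenced as 52-bp paired-end reads, per the labels' protocols. The authors deposited 1 merged Salmon table of estimated counts by gene, with no depth scaling. Per the submitters' processing notes, the tools were STAR, Salmon and bcl2fastq 4.0.3, on the build GRCm38. Their annotation, strand setting and other versions were not given in the sources used here. Of the values 11.1% were not whole, and all were rounded. Column names were matched to libraries through the labels.

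KO and WT were compared with edgeR 4.0.16 (R 4.3.3): quasi-likelihood F test, TMM scaling and filterByExpr at its defaults, without covariates, on the whole table. The filter kept 13792 genes and dropped 0.0705% of counts. A gene was called at an adjusted p (Benjamini-Hochberg) under 0.05. Standard errors and 95% intervals were derived from the F statistic. CPM were computed with TMM-scaled library sizes, and log2 values use CPM + 0.5. Exact permutation tests used 12870 assignments and correlations 100000 permutations within genotype. An adjustment of the exact tests over the 10 genes had been planned and is not used, since the genes were chosen with earlier results known.

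The members and gene lists were chosen with earlier results of these data known. The rule for named genes took called genes of a list, otherwise the 2 with the smallest p and the 2 with the highest mean CPM, and the 3 genes most like each of 5 members. Genes outside it were named after their values were seen (Mki67, Trim63, Cd3e, Cd79a, myomixer and the readout genes described by library). Coordinates, lengths and biotypes are from GENCODE vM21 (GRCm38), which held 99.5% of tested identifiers, and promoters from RefSeq (GRCm38.p6). No 2 libraries of a genotype were duplicates, with a smallest chi-square per degree of freedom of 8.093 over genes with at least 20 counts. By this measure the KO libraries formed separate sets. Pairs among KO 1, KO 3, KO 5 and KO 8 had 8.093 to 21.55, and pairs among KO 2, KO 4, KO 6 and KO 7 had 20.44 to 30.81. Pairs across these sets had 44.02 to 78.89, and WT pairs had 9.415 to 47.34. The cause of this split was not tested. The gene test was tested on simulated data with known changes of 1.5-fold or more, in genes with a mean of at least 1 CPM. Smaller changes, and changes in genes of lower mean such as Myf5, were not covered. Alternatives were other scalings, filters and covariates, DESeq2 1.42.0, limma 3.58.1, a replicate block and leaving out libraries.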

Additional observations from a re-analysis of the deposited data

Results flagged for a closer look

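In 8 libraries of a group, a value was marked when its gap to the nearest other value exceeded Dixon's 95% critical share of the group's range. Among the 20 groups tested (10 genes in KO and in WT), chance marks about 1 in 20 if the values spread normally. The rule was applied to CPM and not to log2 values, so that rate need not hold for a gene as uneven as Tmem8c. Tmem8c in WT 4 stood at 8.49 CPM, with the next WT library at 1.16 CPM. Tmem8c in KO 4 stood at 3.90 CPM, with the next KO library at 1.79 CPM. Mef2c in KO 6 stood low at 489.3 CPM, with the next KO library at 557.2 CPM.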

How the results depend on the processing

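The count of called genes among the 10 was 0 in each of 29 alternative fits, but Myf5 and Tmem8c were not tested under the filter of 1 CPM in 8 libraries, and DESeq2 gave an adjusted p for 5 of the 10. The 6 called genes of the whole table became 2 with RLE scaling, 3 without a low-count filter, 101 with DESeq2, and 2 to 8 when 1 library was left out. The count was 2 or 3 without any 1 of KO 1, 2, 3, 5 or 8, or of WT 2, 3, 4, 5, 6 or 8. In fits chosen after the data were seen, 3 were called without KO 4 and WT 4, 2 without WT 3 and WT 4, and 2 without KO 1, KO 3, KO 5 and KO 8, which hold the most RNA without a poly(A) tail in KO. With the replicate block 2 genes were called. Same-numbered libraries deviated together with r between -0.109 and 0.247, over 0.1 in 3 of 8 pairs. The largest r was that of KO 4 and WT 4, the libraries with the 2 highest levels of Tmem8c and Myh3. Of the KO libraries 2 of 8 were closest to the WT library of their number, and the main fit did not take the numbers as pairs. What these values would be without pairing was not computed. Under the block 3 of the 10 genes had an unadjusted p under 0.05 (Myod1, Pax7 and Mef2a), and Tmem8c stood at 0.72 on the log2 scale (adjusted p = 0.694). The exact test had 2 genes under an unadjusted p of 0.05, and 1 to 2 when 1 library was left out, with 1 without any 1 of WT 2, WT 3, KO 4, KO 5, KO 6 or KO 8. The sign turned in at least 1 fit for Tmem8c, Myog, Mef2c and Mef2d, none of them called, and in no fit for the other 6. The cause of these moves was not tested. Counts behind Tmem8c ran from 1 to 258 per library and those behind Myf5 from 11 to 49, with standard errors of 0.82 and 0.26 on the log2 scale.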

Other observations

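Library WT 3, the deepest of the 16, combined the highest Myod1 (33.0 CPM) with the lowest Pax7 (2.10 CPM) and the lowest Mef2d (213.9 CPM), and it had the lowest level of Acta1, 18451 CPM. Libraries WT 7 and KO 7 had the lowest Tmem8c of their groups, and KO 7 also had the lowest Myh3 (3.18 CPM) and Runx1. Chrng was lowest in the same libraries, with 0.026 CPM in KO 7 and 0.027 CPM in WT 7, too near 0 to rank them. Markers of nerve and Schwann cells were tested for 6 of 6 genes with 0 called, and those of adipocytes for 4 of 4 with 0 called. Adipoq, an adipocyte hormone, averaged 9.11 ± 2.92 CPM in KO against 9.28 ± 2.98 CPM in WT (SD, n = 8 each). Of the fibro-adipogenic and tendon markers all 10 were tested and 0 called, with a median log2 fold change of 0.02.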
